A study of Caenorhabditis elegans with 8 samples.

Results

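The cuticle collagen genes of Caenorhabditis elegans carry the name col, and a block of their gene IDs is described here as a class of messenger RNA made outside the germline. Members were all gene IDs of the count table whose WormBase number lies from 600 to 750, which gave 85 of the 12240 gene IDs listed. The range holds 151 numbers, and the other 66 are not listed in the table. No source used here pairs a WormBase ID with a symbol, so the block is taken as collagen genes from its rule alone, and members are called by their IDs. The reference gene table lists 159 genes with a col symbol, none of which could be linked to an ID.

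The series used iCLIP, in which ultraviolet light fixes RNA to the protein it touches before the protein is purified and the RNA is sequenced. All 8 libraries came from fourth-stage (L4) larvae of worms that carried a FLAG-tagged FOG-3 at a single genomic copy. The 4 FOG-3 libraries were purified with the FLAG antibody. By the tags of their columns they are CGGA and GGCA, followed by GGTT and TGGC, and values of all 4 are given in that order. The 4 controls, AATA and CCGG followed by TTAA and TTGT, came from the same worms through the same protocol without that antibody, so the tagged protein is present in both groups. The labels give no untagged strain, no age in hours and no link from a tag to a replicate number.

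FOG-3 is a germline protein needed for germ cells to become sperm. Cuticle collagens are made by the hypodermis, the epithelium under the worm's outer coat, and are secreted and crosslinked into that coat. The cuticle is rebuilt at each moult, and collagen genes are known to be transcribed in successive waves within each moulting cycle, early and late genes in turn. Collagen mRNA therefore comes from cells other than those in which FOG-3 acts.

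FOG-3 libraries held 76790 to 186739 gene-assigned reads and controls 14964 to 74892. By total counts, 1 read was thus worth 5.36 to 13.02 CPM (reads scaled to library size) in the first and 13.4 to 66.8 CPM in the second. The most abundant gene ID alone had 49.8% ± 6.9 (SD, n = 4) of the reads of a control and 27.9% ± 2.5 of those of a FOG-3 library. Every scaling below has to deal with this difference in composition. Intervals and floors cover counting error only, since PCR copies may not be independent molecules. Block reads count RNA recovered with or without the antibody and are not by themselves a measure of mRNA amount. Larger amounts of collagen mRNA per cell and more collagen-making cells cannot be told apart in such libraries.

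Collagen block reads were few and were present with and without the antibody. The block held 1330 reads with the antibody and 371 without it, so 78.2% of its reads came from FOG-3 libraries, against 76.02% of all gene-assigned reads. The block made up 0.294% of gene-assigned reads in CGGA, 0.242% in GGCA, 0.393% in GGTT and 0.298% in TGGC. In controls it made up 0.258% in AATA, 0.123% in CCGG, 0.134% in TTAA and 0.333% in TTGT. The groups overlapped, because the deepest control, TTGT, exceeded 3 of the 4 FOG-3 libraries. Exact 95% intervals were 0.292% to 0.376% for TTGT and 0.0781% to 0.185% for CCGG, whose block rested on 23 reads. The means were 0.307% ± 0.063 and 0.212% ± 0.101 (SD, n = 4), a ratio of 1.45, and the difference was smaller than the spread between controls.

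The direction of that ratio depended on what the block was set against. Once the 10 most abundant gene IDs were removed, the block made up 0.901% ± 0.272 (SD, n = 4) of the reads that remained in controls. After FOG-3 purification it made up 0.530% ± 0.116 of them, and the ratio was 0.589. The groups still overlapped, with FOG-3 libraries between 0.397% and 0.670% and controls between 0.648% and 1.16%. Set against the most abundant gene ID alone, the block was 0.454% ± 0.275 of its reads in controls and 1.10% ± 0.21 after FOG-3 purification, a ratio of 2.43, and the groups did not overlap. The same block reads were thus above controls against the most abundant ID, and below them in the mean against the rarer ones. No p is given for these sums, since the block was chosen with earlier results of these data known.

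**Figure D1:**
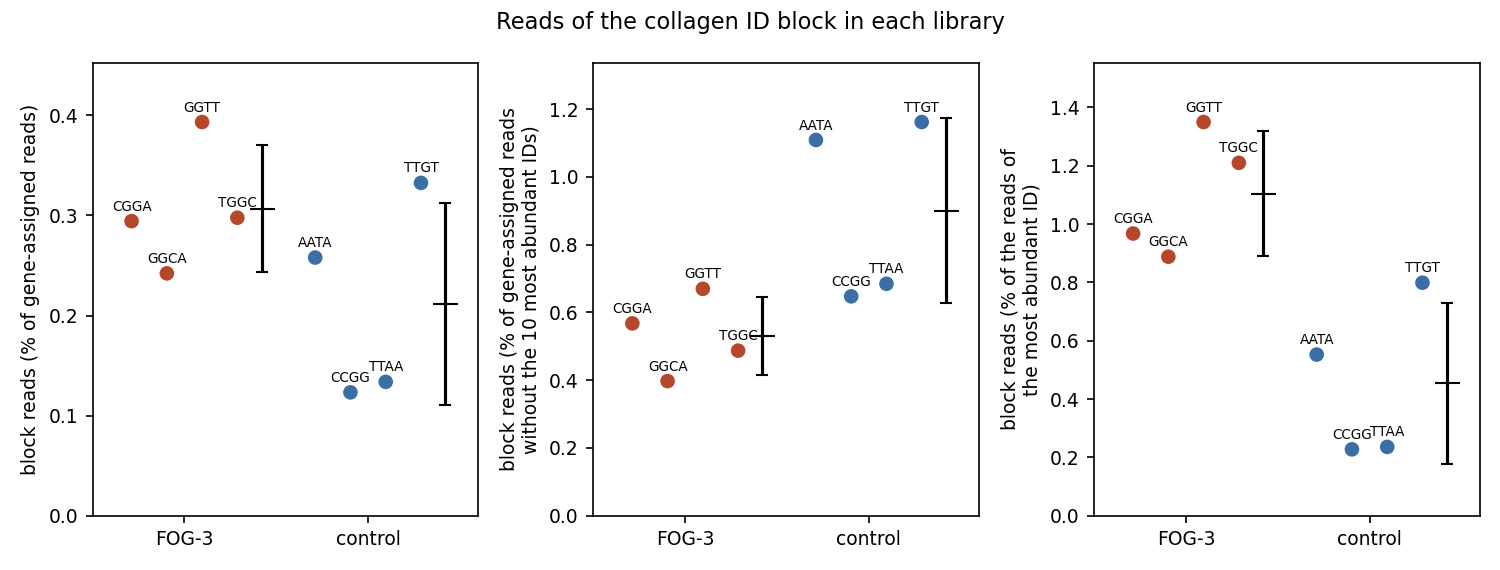
Reads of the block in each library as a percentage of gene-assigned reads (left), of gene-assigned reads without the 10 most abundant gene IDs (middle) and of the reads of the most abundant gene ID (right). Points are libraries and bars are the mean ± SD of 4. The FOG-3 mean lies above the control mean on the left (ratio 1.45) and right (2.43) and below it in the middle (0.589), and only on the right do the groups not overlap.

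Most members were too rare to be compared one by one. Of the 85, 27 had 1 to 2 reads in all 8 libraries together, 23 had 3 to 9, 12 had 10 to 19 and 23 had at least 20. Reads in both groups were found for 50 members (58.8%), in FOG-3 libraries alone for 29 (34.1%) and in controls alone for 6 (7.06%). Over all gene IDs these percentages were 41.07%, 56.0% and 2.93%. The 5 members with most reads held 37.3% of its FOG-3 reads and 37.7% of its control reads. At an equal depth of 14964 reads, 22.8 ± 3.2 members (SD, n = 4) were expected with a read after FOG-3 purification and 17.8 ± 5.0 without the antibody, a ratio of 1.28. FOG-3 libraries ran from 20.2 to 26.9 and controls from 13 to 23.8, so the groups overlapped. For all gene IDs the same ratio was 2.59, with no overlap.

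Members with enough reads took a smaller part of them from FOG-3 libraries than most other gene IDs. Among the 23 members with at least 20 reads, the median share of reads from FOG-3 libraries was 80.7%, with a range of 63.0% to 100%. Among all 3013 gene IDs with at least 20 reads the median was 93.9%. The share exceeded that of all gene-assigned reads (76.02%) for 14 of the 23 members (60.9%) and for 90.3% of the 3013. Only 2 members, WBGene00000620 and WBGene00000749, lay above the median of all, and these had no control read.

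**Figure D2:**
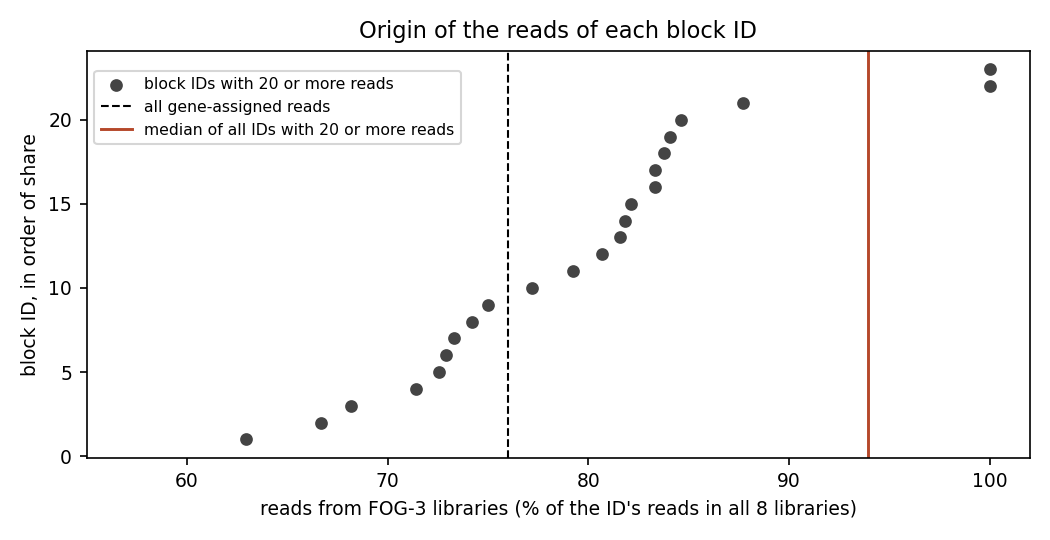
Share of each member's reads that came from FOG-3 libraries, for the 23 block IDs with at least 20 reads (x axis, percent of the ID's reads in all 8 libraries), in order of share (y axis). The dashed line is the share for all gene-assigned reads (76.02%) and the solid line the median of all 3013 gene IDs with at least 20 reads (93.9%), which 21 of the 23 points lie to the left of.

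Which single members differed between FOG-3 and control libraries was tested in a fit over all gene IDs that passed a filter on low counts (edgeR quasi-likelihood test, TMM scaling, which assumes that most genes do not differ). Of 886 gene IDs tested, 27.5% were called lower and 45.3% higher in FOG-3 at an adjusted p under 0.05. Most tested IDs were thus called, and their median log2 fold change was 0.74. By its own calls the fit did not meet the assumption of TMM, so its directions and p-values depend on the scaling. Only 4 of the 85 members passed the filter, so the calls describe the 4 with most reads and not the block. Of these 4, 3 were called lower and 0 higher. DESeq2 called 0 of the 4 higher and 0 lower, against 63.4% and 9.82% of all, and put 3 of them at a log2 fold change above 0. Levels of the 4 overlapped between groups, while they did not overlap for 64.6% of all tested gene IDs. In the TMM-scaled levels below, 1 read was worth 3.58 to 8.43 CPM in FOG-3 libraries and 18.6 to 112.6 CPM in controls.

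WBGene00000649 gave the smallest p of the block. Its TMM-scaled level was 101 CPM in CGGA, 81.5 in GGCA, 212 in GGTT and 161 in TGGC, from 97 reads. In controls it was 101 CPM in AATA (2 reads), 176 in CCGG (2), 450.5 in TTAA (4) and 522 in TTGT (28), from 36 reads. The high values lay in 2 controls, and AATA and CCGG lay among the FOG-3 libraries. The fitted difference was -1.38 ± 0.36 on the log2 scale (SE, edgeR adjusted p = 0.000224), and without TTGT it was 0.08 (edgeR adjusted p = 0.909).

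WBGene00000717, the member with most reads (171), was at 295, 200.5, 149 and 165 CPM in the 4 FOG-3 libraries. Controls stood at 709.7 CPM in AATA (14 reads), 88.1 in CCGG (1 read), 225 in TTAA (2 reads) and 410.1 in TTGT (22 reads). The lowest and the highest library were both controls, the lowest from 1 read. With TMM it fell by 1.06 ± 0.34 on the log2 scale (SE, edgeR adjusted p = 0.00312). The log2 fold change was -0.56 without AATA (adjusted p = 0.262) and -0.47 without TTGT (adjusted p = 0.338).

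WBGene00000672 was called lower although its reads were uneven within both groups. Its level was 16.9 CPM in CGGA, 94.0 in GGCA, 212 in GGTT and 143 in TGGC. Of its 22 control reads, 21 came from TTGT (391 CPM), 1 from CCGG (88.1 CPM) and none (0) from AATA and TTAA, where 3 reads would have been 152 and 338 CPM. The group means were 117 ± 82 and 119.9 ± 185.7 CPM (SD, n = 4). Its fitted difference was -0.88 ± 0.40 on the log2 scale (SE, edgeR adjusted p = 0.0393). Without TTGT the same ID was called higher, at 2.79 on the log2 scale (edgeR adjusted p = 0.0132).

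WBGene00000691 did not pass the threshold. The fit put it at -0.77 ± 0.37 on the log2 scale (SE, edgeR adjusted p = 0.0507). Its level was 337 CPM in CGGA, and the other FOG-3 libraries stood at 144, 133 and 147 CPM. Controls stood at 456 CPM in AATA (9 reads), 176 in CCGG (2), 338 in TTAA (3) and 279.6 in TTGT (15). Every control was above the 3 lower FOG-3 libraries, and CGGA was above 2 controls.

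The direction of all 4 moved with the scaling. The median log2 fold change over all gene IDs in the fit moved too. With TMM it was 0.74 and the 4 members lay at -0.77 to -1.38. With total counts alone the median was 1.94, WBGene00000649 lay at -0.16 and the others at 0.17 to 0.45, and none of the 4 was called in either direction, where 67.3% of all gene IDs were called higher and 9.48% lower. Scaled on the most abundant gene ID the median was 2.68, the 4 lay at 0.62 to 1.20, and 3 of them were called higher, against 79.7% of all. A change of scaling moves all gene IDs nearly alike, so the distance of a member from this median is nearly fixed by construction and says nothing about stability. With TMM it was -1.51 (WBGene00000691) to -2.12 (WBGene00000649). Leaving out a library can change that distance. Without TTGT, WBGene00000672 lay above the median (2.79 against 1.79), and the distances of the other 3 members were -1.71 to -2.26.

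**Figure D3:**
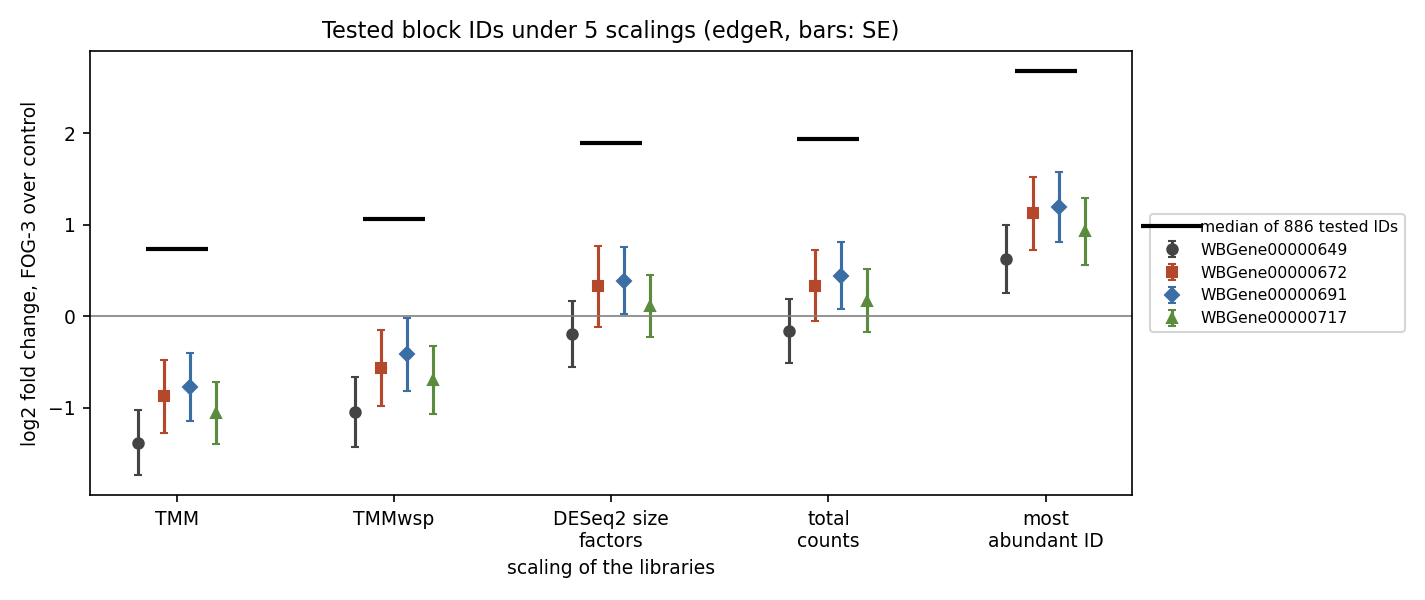
Log2 fold change of FOG-3 over control (y axis) for the 4 block IDs that passed the filter, under 5 ways of scaling the libraries (x axis), with SE from 4 libraries per group. Horizontal dashes are the median of the 886 gene IDs tested, 0.74 with TMM and 2.68 on the most abundant ID, and a change of scaling moves members and dash nearly alike.

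Of the next most read members, WBGene00000606 and WBGene00000683 did not pass the filter and were not tested. WBGene00000606 had 3, 8, 18 and 33 reads in the FOG-3 libraries, and in controls 2 in AATA, 12 in TTGT and none (0) in the other two. WBGene00000683 had 5, 7, 16 and 29 reads in the FOG-3 libraries in the same order and 4 control reads each in CCGG and TTGT. Both showed more reads in GGTT than in CGGA, libraries of similar depth (76790 and 80529 reads).

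WBGene00000620 and WBGene00000749, named after their values were seen, had reads in each of the FOG-3 libraries and 0 in all controls. WBGene00000620 had 6, 3, 12 and 11 FOG-3 reads. With 3 reads set over the control group as its floor, its pooled FOG-3 level was 1.46 times that floor with TMM and 3.37 times with total counts. WBGene00000749 had 8, 4, 2 and 6 reads in that order, which put it at 0.911 times the floor with TMM and 2.10 times with total counts. These values leave out the counting error of the FOG-3 reads. Both IDs were picked for having no control read, so the values are no evidence of a difference. Of all gene IDs, at any number of reads, 56.0% had reads in FOG-3 libraries alone.

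Libraries of the same group also differed in which members they held. Members differed in how their FOG-3 reads were spread over the 4 libraries. CGGA held 18.3% of all gene-assigned FOG-3 reads, and over the 2812 gene IDs with at least 20 FOG-3 reads its median share was 15.4% (quartiles 11.8% and 19.4%). Of the 19 members with as many reads, 5 lay below the 5th percentile of all these gene IDs (5.13%) and 9 above the 95th (25%). The shares ran from 2.22% to 40.0%, with 7 members under 10% (36.8%, against 15.9% of all gene IDs). Between 12.4% and 18.8% there was no member.

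The members with few and with many reads in CGGA formed 2 sets, divided after the values were seen at the 18.3% of all gene-assigned reads. The 8 members of the CGGA-low set have ID numbers from 603 to 683. Of the 11 in the other set, 10 have numbers above 690, a cut also placed after the values were seen, and the remaining one is WBGene00000620. WBGene00000672 had 2, 15, 27 and 40 reads in the FOG-3 libraries, and WBGene00000606 and WBGene00000683 also belong to the CGGA-low set. WBGene00000717, with 35, 32, 19 and 46 reads, and WBGene00000691, with 40, 23, 17 and 41, belong to the other. Among the FOG-3 libraries, as shares of gene-assigned reads, the first set was highest in GGTT (0.190%) and lowest in CGGA (0.0360%), and the second highest in CGGA (0.204%) and lowest in TGGC (0.0991%). The low and the high value of CGGA follow from the division, which was made on that library.

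**Figure D4:**
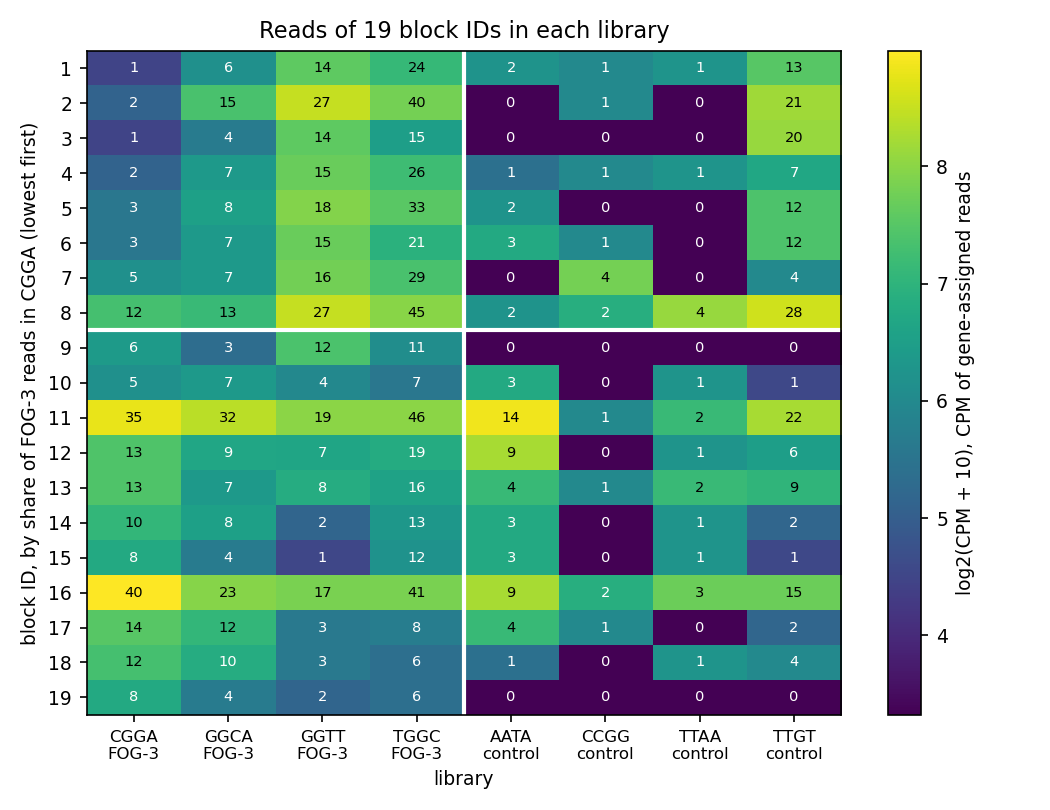
Reads of the 19 block IDs with at least 20 FOG-3 reads (rows, ordered by the share of their FOG-3 reads in CGGA) in each of the 8 libraries (columns); numbers are reads and colour is log2 of CPM plus 10. In the upper 8 rows CGGA holds 2.22% to 12.4% of the FOG-3 reads and in the lower 11 rows 18.8% to 40.0%.

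The controls, which the division did not use, differed among themselves along the same line. The CGGA-low set held 10 of the 60 reads of both sets in AATA, which is 16.7% (exact 95% interval 8.29% to 28.5%). It held 65.4% in TTGT (57.9% to 72.3%), 66.7% in CCGG (38.4% to 88.2%, from 15 reads) and 33.3% in TTAA (13.3% to 59.01%, from 18 reads). In the FOG-3 libraries, on which the sets were chosen, it held 15.03% in CGGA, 36.02% in GGCA, 65.2% in GGTT and 55.7% in TGGC. AATA thus had the lowest value of the controls, while the low value of CGGA follows from how the sets were made. The intervals of AATA and TTGT, compared after the values were seen, did not meet, and that of TTAA met both. All gene IDs divided by the same rule, without the 10 most abundant, gave 54.4% in AATA, 51.2% in CCGG, 50.1% in TTAA and 55.5% in TTGT.

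Single members showed the same split between the 2 deepest controls. AATA held 29.03% of the gene-assigned reads of AATA and TTGT together. In the CGGA-low set AATA held 10 of 127 such reads (7.87%, exact 95% interval 3.84% to 14%), and each of the 8 members was under 29.03%. In the other set it held 50 of 112 (44.6%, 35.2% to 54.3%), and 8 of the 11 members were above 29.03%, 2 had no read in either library and 1 was below. All members come from the same 2 libraries and are not replicates of the difference between them. Some also rest on few reads, such as WBGene00000683 in the CGGA-low set (0 of 4 in AATA) and WBGene00000742 in the other (3 of 4). The same division of all gene IDs gave 24.6% and 25.4%. Whether the libraries differed in the stage of their larvae was not tested, and no label gives it.

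**Figure D5:**
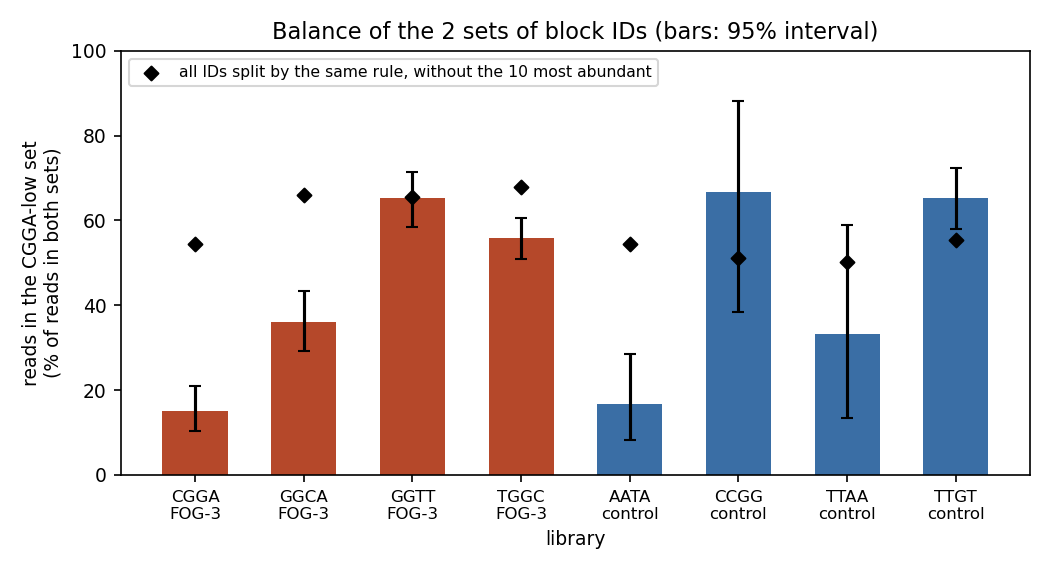
Share of the reads of both sets that fell in the CGGA-low set (y axis, percent) in each library (x axis), with exact 95% intervals; diamonds give the same share for all gene IDs divided by the same rule, without the 10 most abundant. The 4 FOG-3 bars come from the libraries that defined the sets, and the controls run from 16.7% in AATA to 66.7% in CCGG while their diamonds stay between 50.1% and 55.5%.

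The ratio of FOG-3 to control levels was computed for each set, with no test. Pooled over libraries, the CGGA-low set was at 0.454 of its control level with TMM and 1.05 with total counts, and the other set at 0.579 and 1.34. Members of both sets were chosen by their number of FOG-3 reads, which favours higher ratios, so these values are no evidence of a difference from controls. The other set also holds WBGene00000620 and WBGene00000749, which had no control read. The CGGA-low set took 117 of its 143 control reads from TTGT. Without that library its ratio was 1.07 with TMM and 2.66 with total counts, above those of the other set (0.476 and 1.19). The order also turned without CGGA, at 0.516 with TMM and 1.20 with total counts against 0.490 and 1.14. The sets were divided on their CGGA reads, so leaving out CGGA raises the first ratio and lowers the second by construction. Apart from that built-in shift, which set had the lower ratio rested on TTGT. Similar collagen genes can share reads, and how reads with several matches were counted is not stated. None (0) of the 35 members with at least 10 reads matched another gene ID in every one of the 8 counts, and 1 pair of members differed in 1 library only, with 13 and 14 reads. Of all 85 members, 43 matched another gene ID in every count, each with fewer than 10 reads. Genes that share only part of their reads need not match in counts, so sharing was not tested.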

How the data were processed

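The table deposited by the authors holds raw read counts by WormBase gene ID in 8 columns, all used. The submitters' processing notes name STAR 2.4.2 and HTSeq. Not given in the sources used here are the build, annotation, strand setting and treatment of multiply matching reads and PCR copies. Column names give the group and a tag found in no label, so p-values reflect how these libraries vary. Rows naming no gene (means of 11.5% and 0.648% of reads in FOG-3, 3.70% and 0.380% in controls) stayed out of totals.

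The test was the quasi-likelihood F test of edgeR 4.0.16 under R 4.3.3 (TMM, group only, minimum count 10 and total 15, Benjamini-Hochberg over all tested gene IDs, threshold 0.05), after a run on simulated data. SEs are approximate, the log2 fold change over the square root of F. DESeq2 1.42.0, other scalings, filters and leaving out each library were alternatives. Expected numbers at equal depth assume drawing without replacement. A floor is 3 reads.

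The block and its rules were chosen with earlier results of these data known. Named IDs are up to 2 called per direction by p and up to 4 more by read number; others are said to be chosen after their values. Fixed lists of other cuticle genes and cell type markers need symbols and were not analysed here. No sequence is shown for the same reason.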

Additional observations from a re-analysis of the deposited data

Results flagged for a closer look

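Among 18 groups of 4 values checked with Dixon's test, 1 value lay far from the rest of its group, about the number that chance gives at 1 in 20. WBGene00000691 was at 337 TMM-scaled CPM in the FOG-3 library CGGA, while the other 3 FOG-3 libraries lay between 133 and 147 CPM. Its reads there numbered 40.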

How the results depend on the processing

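The sum over the block set against TMM-scaled sizes or the most abundant ID, and the leave-one-out of detection and of the 2 sets, were alternatives added after seeing the data. Lower calls among members were 3 of 4 with TMM (27.5% of all IDs tested) and 1 of 4 with TMMwsp factors (21.8%). They were 1 of 42 with at least 1 CPM in 4 libraries (3.65%) and 2 of 85 without a filter (1.08%). They were 0 of 4 with total counts (9.48%), in DESeq2 (9.82%), in edgeR under DESeq2 size factors (10.4%) and on the most abundant ID (0.677%). Higher calls were 3 of 4 when scaled on that ID (79.7% of all), 1 of 85 without a filter (7.75% of all) and 2 of 42 with the 1 CPM filter (22.3% of all), where more IDs were tested. The 2 of 42 were WBGene00000620 and WBGene00000749, which had no control read. They passed the 1 CPM filter through the FOG-3 libraries alone, so these calls are not taken as evidence of a difference. Without a filter the calls were WBGene00000620 higher, and WBGene00000639 and WBGene00000618 lower, the last from 3 control reads and 0 in FOG-3. Leaving out each library, with 4 to 6 members tested, gave 0 to 3 lower calls (10.8% to 26.5% of all IDs tested) and 0 to 1 higher (42.8% to 53.5%). Without TTGT they were 0 lower and 1 higher of 6 (10.8% and 51.8% of all). The log2 fold change turned with total counts to 0.33 (WBGene00000672), 0.45 (WBGene00000691) and 0.17 (WBGene00000717), with DESeq2's size factors to 0.33, 0.39 and 0.11, with DESeq2 to 0.93, 0.39 and 0.14, and on the most abundant ID to 1.13, 1.20 and 0.93. WBGene00000649 turned to 0.62 on that ID and to 0.081 without TTGT, and WBGene00000672 to 2.79 without TTGT. Over the libraries left out in turn these log2 fold changes ran from -1.69 to 0.08 (WBGene00000649), -1.28 to 2.79 (WBGene00000672), -0.77 to -0.32 (WBGene00000691) and -1.08 to -0.47 (WBGene00000717). The ratio of block shares, 1.45, was 0.589 without the 10 most abundant IDs, 0.606 over TMM-scaled sizes and 2.43 over the most abundant ID, and 1.27 to 1.79 leaving out each library. The FOG-3 to control ratio of the CGGA-low set then ran from 0.385 to 1.07 with TMM and 0.879 to 2.66 with total counts, both highest without TTGT. The difference in expected members at equal depth, 5.01, then ran from 3.45 to 7.01. Beyond the number of IDs tested, the cause was not tested. No paired analysis was possible because the columns carry no replicate numbers. In the shallowest control, TTAA, 3 reads are 200.5 CPM by total counts and 338 TMM-scaled CPM, above the level of most members.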
